A study of Homo sapiens with 9 samples.

Results

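Many long non-coding RNA (lncRNA) loci measured in SNU16 gastric carcinoma cells were listed without a gene symbol, under an Ensembl identifier alone. These loci were all Ensembl transcripts whose gene name was itself an identifier, apart from a stretch of chromosome 8 that the rule leaves out together with 9 loci. FPKM (fragments counted relative to transcript length and to library size) were summed per locus. Loci with 0.5 FPKM or more in 3 or more of the 9 libraries were kept. The rule kept 1973 of 13220 loci (14.9%), with 4488 listed transcripts. Of the others, 6127 were listed at 0 in all 9 libraries and 5120 had values above 0 but did not reach the level. The kept loci were 19.8% of the 9947 genes that passed the same filter. The loci were thus selected on the FPKM of all libraries, without regard to group, and levels are given as a description. Only 9 loci passed through the control libraries alone, 6 through 5-FU alone and 6 through H2O2 alone.

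SNU16 is an established human gastric carcinoma cell line. The groups, of 3 libraries each, were untreated control cells, cells given 7.69 µM 5-fluorouracil (5-FU) and cells given 80 µM hydrogen peroxide (H2O2), for 24 h. 5-FU is a pyrimidine analogue used in chemotherapy that starves cells of thymidine and is built into nucleic acids. H2O2 is a reactive oxygen species. Total RNA was taken up in Trizol and made into libraries with a kit that marks the strand, per the labels' protocols, but the sources used here do not say if strand entered the quantification. All groups share the one cell line. No label ties a replicate to its own culture, and the p-values then reflect only how far these libraries spread, which may be technical.

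Long non-coding RNAs are transcripts without a recognised coding sequence. They are classed by where they lie: between genes (lincRNA), over a gene on the opposite strand (antisense), inside an intron on the same strand (sense intronic), or at a shared promoter (divergent). Some act in chromatin regulation, splicing or as hosts of small RNAs, and for most unnamed loci no role is known. Many are transcribed from the promoters or within the introns of protein-coding genes.

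The label was checked against the GENCODE V29 gene set (GRCh38, the build that the submitters name). It held 1449 of the 1973 loci, and 1438 of these belonged to lncRNA classes: 507 antisense, 428 lincRNA, 357 sense intronic, 76 processed transcript, 52 sense overlapping, 9 bidirectional promoter and 9 overlapping the 3′ end of another gene. The remaining 11 were classed otherwise, 9 of them as protein-coding, and 524 loci were absent from that release. For 122 loci the most abundant transcript stood in V29 under another gene, and for 113 of these that gene was a transcribed unprocessed pseudogene. Reads of such loci can be shared with near-identical copies, so their values are uncertain. A current symbol was found for 24 loci, among them LINC03057 (ENSG00000272763), LINC03073 (ENSG00000273084) and SLC30A4-AS1 (ENSG00000259354). Loci were most numerous on chromosomes 17 (165), 16 (152) and 1 (150) and fewest on chromosome 21 (25).

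The 5-FU comparison turned on 12 loci, and 8 are shown here, from V29 transcripts with the same ends as the deposited ones. The other 4 are not shown or counted here. Of those, ENSG00000253666 and ENSG00000267317 also had a main transcript with the same ends in V29. The 8 are thus not all the called loci that qualify. The last 60 bases are given because they are where a polyadenylation signal would stand. Sequences are those of GENCODE V29 transcripts (GRCh38), 5′ to 3′, with the hexamer AATAAA in capitals.
ENSG00000273448, chr7:67334324-67334383, plus strand: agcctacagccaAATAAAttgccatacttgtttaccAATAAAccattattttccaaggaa
ENSG00000276672, chr13:33850766-33850825, plus strand: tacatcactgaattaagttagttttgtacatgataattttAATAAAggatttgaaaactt
ENSG00000276850, chr10:47985519-47985578, minus strand: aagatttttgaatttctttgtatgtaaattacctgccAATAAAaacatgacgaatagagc
ENSG00000275185, chr17:30899592-30899651, plus strand: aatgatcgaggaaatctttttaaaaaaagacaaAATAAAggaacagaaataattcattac
ENSG00000259354, chr15:45460897-45460956, plus strand: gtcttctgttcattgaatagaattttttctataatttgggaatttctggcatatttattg
ENSG00000286058, chr2:130026845-130026904, minus strand: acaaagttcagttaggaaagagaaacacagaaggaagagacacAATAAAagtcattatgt
ENSG00000272106, chr1:1613758-1613817, minus strand: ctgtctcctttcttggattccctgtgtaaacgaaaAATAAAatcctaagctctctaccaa
ENSG00000242861, chr1:225840883-225840942, minus strand: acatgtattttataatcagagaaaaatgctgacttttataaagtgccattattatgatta
In 6 of these 8 the hexamer stood within the last 40 bases of the transcript. AATAAA or ATTAAA, searched on the transcript's own strand, stood in the last 40 bases of 46.1% of the 1480 loci whose main transcript V29 holds, against 47.6% for lncRNAs named LINC.

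The first 120 bases of 2 of these loci are shown for their contrast in CG dinucleotides, which are in capitals. Dense CG marks many promoters of housekeeping genes.
ENSG00000272106, chr1:1615676-1615795, minus strand: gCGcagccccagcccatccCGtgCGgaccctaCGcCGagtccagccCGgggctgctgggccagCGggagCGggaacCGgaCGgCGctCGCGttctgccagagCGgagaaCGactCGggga
ENSG00000276672, chr13:33846190-33846309, plus strand: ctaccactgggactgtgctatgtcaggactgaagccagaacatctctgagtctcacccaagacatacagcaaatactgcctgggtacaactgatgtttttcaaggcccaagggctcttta
The first, from the locus over MIB2, held 16 CG and the other, from an intron of RFC3, 0. The median over the loci was 2, against 3 for LINC, 7 for named antisense and 8 for named divergent lncRNAs. Of the loci's main transcripts, 46.0% had a single exon, the median length was 664 bases and the median GC content was 46.4%. LINC transcripts were longer, with a median of 1263 bases, and 21.3% had a single exon.

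Most loci were expressed at a low level. Their mean over the 9 libraries had a median of 1.004 FPKM with quartiles of 0.600 and 1.86, beside a median of 2.01 over all 9947 genes tested. A mean of 1 FPKM was reached by 992 loci, 5 FPKM by 153 and 10 FPKM by 53, and those 53 held 30.7% of the loci's summed FPKM. Their share of all listed FPKM was 7.67% ± 0.182 (SD, n = 3) for control, 7.25% ± 0.0334 for 5-FU and 7.31% ± 0.344 for H2O2. Between 1522 and 1648 loci reached 0.5 FPKM in a library, and 1005 did so in all 9. Just inside the rule, ENSG00000254230 over SORBS3 had a third-highest value of 0.50042 FPKM and ENSG00000271401 over TTN 0.50071. Just outside it stood ENSG00000271918 with 0.49983 and ENSG00000260000 with 0.4993.

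Depth is unknown, since the files give no counts, and listed FPKM summed to between 56096.4 and 60642.1 a library. Over the loci, replicate pairs had correlations of 0.894 to 0.899 for control, of 0.885 to 0.900 for 5-FU and of 0.863 to 0.900 for H2O2 (Pearson on the log2 scale, across loci, which are not independent). Replicate 3 of H2O2 listed 42 loci at 0, against 2 to 24 in the other libraries. Of 13 markers of epithelial cells and of this cell line, 10 were listed, all with a mean of at least 0.5 FPKM. Of 11 markers of blood, fibroblast and endothelial cells, 6 were listed and none reached that mean. PTPRC, COL1A2 and VWF were among those listed at 0, and the 6 summed to at most 0.742 FPKM in a library. COL1A1 lay just under the cut, with a mean of 0.478 FPKM over the 9 libraries. Its group mean was highest with 5-FU, at 0.580 FPKM and so above 0.5, against 0.374 for control and 0.479 for H2O2. The table lists mostly non-coding transcripts, so values under protein-coding symbols are of those and not of the mRNA. In these bulk samples a smaller number of expressing cells and less RNA per cell cannot be told apart.

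The most abundant locus was ENSG00000276232 (AC006064.5), 248 bases at chr12:6510275-6510522 inside an intron of NCAPD2, a condensin subunit, and on its strand. It measured 386, 395 and 397 FPKM in control, 369, 290 and 362 in 5-FU and 405, 427 and 408 in H2O2. Its 5-FU libraries all lay below the control libraries and its H2O2 libraries all above, though neither difference passed the test (log2 -0.21, limma adjusted p = 0.441, and 0.07, adjusted p = 0.890).

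Pseudogene-derived loci followed. ENSG00000291060 on chromosome 16, whose main transcript V29 lists as SMG1P1, a copy of the nonsense-mediated decay kinase gene SMG1, measured 43.8, 106 and 108 FPKM in control. It measured 101.2, 80.8 and 103 in 5-FU and 97.9, 98.1 and 128 in H2O2. Control replicate 1 was lowest, and the groups overlapped. Its transcript ENST00000308347 was listed at 0 in control and averaged 14.4 FPKM ± 20.9 in 5-FU and 41.9 ± 6.35 in H2O2 (SD, n = 3 each). The overlapping ENST00000381231 averaged 16.9 ± 7.09 in control, 16.4 ± 14.8 in 5-FU and 4.65 ± 1.09 in H2O2. Reads can be divided between such transcripts, and single transcripts were not tested. Of the main transcript of ENSG00000291060, 70.8% lies in exons of protein-coding genes on its strand. ENSG00000291003 on chromosome 15, listed in V29 as HERC2P2, measured 46.5, 50.9 and 47.8 FPKM in control, 49.5, 49.6 and 61.6 in 5-FU and 41.7, 38.0 and 39.0 in H2O2. H2O2 libraries lay below both other groups without passing the test against control (adjusted p = 0.556). ENSG00000291073, listed as SMG1P3, had a mean of 26.3 FPKM and a coefficient of variation (CV, SD over mean across the 9 libraries) of 9.79%.

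The other abundant loci were ENSG00000290018 on chromosome 2 with a mean of 45.2 FPKM, ENSG00000282304 with 35.9, ENSG00000285756 on chromosome X with 26.3 over 29 listed transcripts, and ENSG00000224322 on chromosome 7 with 24.7. ENSG00000282304 starts 171 bases from MTLN, which encodes the mitochondrial microprotein mitoregulin, on the other strand. It measured 42.8, 40.2 and 36.0 FPKM in control against 32.3, 35.7 and 19.0 in 5-FU, without overlap and without passing the test (adjusted p = 0.332). At ENSG00000224322 the level of the locus was even across groups while its transcripts were listed differently. The transcript ENST00000656126 averaged 11.9 FPKM ± 0.300 in control and 6.45 ± 5.70 in H2O2, and ENST00000664129 averaged 5.67 ± 0.962 and 12.4 ± 2.07 (SD, n = 3 each).

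**Figure D1:**
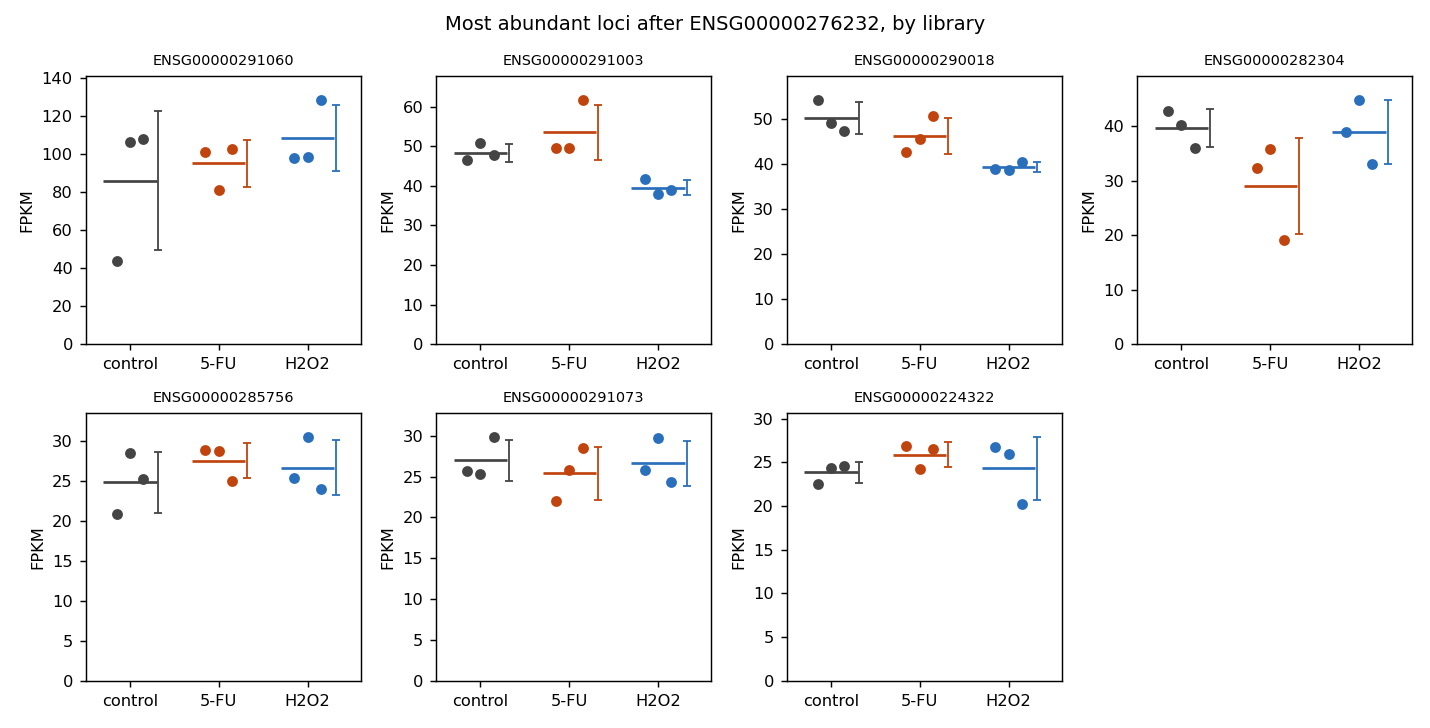
FPKM in each library (points), with the mean (line) and SD (bar, n = 3), of the 7 most abundant loci after ENSG00000276232. ENSG00000291060 has a single low control library at 43.8 FPKM, and H2O2 libraries of ENSG00000291003 lie below the other groups.

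Among loci with a mean of at least 2 FPKM, the steadiest kept nearly the same level in all 9 libraries. ENSG00000272763 (LINC03057), 2351 bases from HOXB7, stayed between 8.87 and 10.2 FPKM with a CV of 4.35%. ENSG00000259366 within HMBOX1, ENSG00000290872 (listed in V29 as POLR2J4) and ENSG00000290993 (listed as RPL32P3) had CVs of 4.98%, 5.92% and 6.01%. The median CV of all loci was 33.1%.

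The most variable loci switched between near 0 and several FPKM within a group. ENSG00000275719, opposite to exons of the glutamine transporter gene SLC1A5, measured 7.85, 7.80 and 9.12 FPKM in control. It measured 6.06, 0.368 and 0.107 in 5-FU and 5.44, 0.110 and 0.163 in H2O2. In each treated group replicate 1 was high and the others were near 0, and the differences did not pass (log2 -2.53 ± 0.960 (SE), adjusted p = 0.241, and -2.71, adjusted p = 0.483). ENSG00000275216 (LINC03061) measured 7.41, 6.30 and 0.0397 FPKM in control, 0.0336, 2.57 and 6.30 in 5-FU and 0.141, 9.61 and 0.0754 in H2O2, so that high and low libraries occurred in every group. ENSG00000287001 had 2.51, 0.0661 and 2.62 FPKM in control and 6.69, 8.03 and 4.10 in 5-FU.

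Loci with the most listed transcripts differed widely in level. ENSG00000291178 had 136 transcripts and a mean of 8.74 FPKM, ENSG00000291176 had 84 and 3.91 FPKM, and ENSG00000232732 had 52 and 0.393 FPKM. ENSG00000291132 on chromosome 1, with 58 transcripts and 52 bases from the translation initiation factor gene EIF3I, measured 4.90, 5.42 and 5.53 FPKM in control. It measured 2.45, 2.49 and 3.27 in 5-FU and 2.72, 3.51 and 3.42 in H2O2. Both treated groups lay below all control libraries, just short of the threshold in 5-FU (log2 -0.84 ± 0.172, adjusted p = 0.0573). Of the 1973 loci, 1492 had 1 listed transcript and 175 had 5 or more.

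A group of loci coincided with small structured RNAs. In V29, 119 loci overlapped a small RNA gene. Each was counted once, by the type of the first such gene in order of name, also where it overlapped several. This gave 37 loci for microRNA, 35 for miscellaneous RNA and 33 for small nuclear RNA. It gave 12 for small nucleolar RNA, 1 for a ribozyme and 1 for small Cajal body RNA. In 5 of the 119 the locus was under 1 kb and on the strand of the small RNA. These 5 were picked out after their values were seen. Their sequences are shown because each locus holds all or most of a small RNA, which makes up between 22.6% and 100% of the locus. Whether the FPKM is of the small RNA or of a longer transcript was not tested, and a locus is called below by the small RNA it holds. Capitals mark bases that also belong to the small RNA, for up to 90 bases, after up to 30 bases of the locus before it (GENCODE V29, GRCh38).
ENSG00000276232 with SCARNA10, chr12:6510275-6510364, plus strand: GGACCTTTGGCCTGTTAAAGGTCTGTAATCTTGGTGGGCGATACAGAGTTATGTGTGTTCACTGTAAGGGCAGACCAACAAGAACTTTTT
ENSG00000259001 with RPPH1, chr14:20343318-20343437, minus strand: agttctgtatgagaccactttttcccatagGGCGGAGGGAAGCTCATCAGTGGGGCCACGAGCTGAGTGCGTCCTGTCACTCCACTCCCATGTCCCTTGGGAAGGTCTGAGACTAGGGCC
ENSG00000276216 with RNVU1-14, chr1:145281116-145281205, plus strand: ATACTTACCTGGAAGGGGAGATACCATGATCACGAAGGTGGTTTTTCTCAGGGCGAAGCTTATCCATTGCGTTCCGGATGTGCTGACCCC
ENSG00000262202 with SNORD3D, chr17:19112547-19112636, minus strand: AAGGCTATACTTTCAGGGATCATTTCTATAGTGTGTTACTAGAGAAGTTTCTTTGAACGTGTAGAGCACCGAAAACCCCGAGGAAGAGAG
ENSG00000270022 with RNU12, chr22:42615244-42615333, plus strand: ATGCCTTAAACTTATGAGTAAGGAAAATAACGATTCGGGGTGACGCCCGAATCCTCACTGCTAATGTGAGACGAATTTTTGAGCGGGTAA
All 248 bases of ENSG00000276232, the most abundant locus, lie within SCARNA10, a guide RNA for modification of spliceosomal RNAs. ENSG00000259001 holds the whole of RPPH1, the RNA subunit of the tRNA-processing enzyme ribonuclease P, from its base 279 on, 333 of its 638 bases. The others begin with the first base of a variant U1 RNA (RNVU1-14), a U3 RNA (SNORD3D) that serves in ribosomal RNA processing, and the U12 RNA of the minor spliceosome (RNU12). U1 and U3 genes have near-identical copies, so these values are uncertain.

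The RPPH1 locus had the smallest p among loci lower in H2O2. It measured 15.4, 23.6 and 14.7 FPKM in control, 11.2, 4.21 and 8.34 in 5-FU and 5.43, 7.31 and 3.86 in H2O2. Every treated library lay below every control library. Neither difference passed (log2 -1.62 ± 0.340, adjusted p = 0.294 in H2O2, and -1.19, adjusted p = 0.136 in 5-FU). The U12 locus ENSG00000270022 measured 2.28, 1.51 and 1.95 FPKM in control, 1.22, 0.843 and 0.539 in 5-FU and 2.48, 2.46 and 2.28 in H2O2. Its 5-FU libraries lay below all others, again short of the threshold (log2 -0.84 ± 0.220, adjusted p = 0.120).

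The U1 variant locus ENSG00000276216 measured 9.04, 10.3 and 8.07 FPKM in control, 5.58, 5.67 and 3.09 in 5-FU and 7.08, 12.1 and 6.54 in H2O2 (log2 -0.90 ± 0.270 for 5-FU, adjusted p = 0.152). The U3 locus ENSG00000262202 had the largest CV of loci with a mean of at least 2 FPKM, 138%. It measured 1.02, 7.34 and 18.4 FPKM in control, 0.644, 0.734 and 1.33 in 5-FU and 0.517, 19.7 and 1.66 in H2O2, with high values in 2 control libraries and 1 H2O2 library. Over all 119 loci that overlap a small RNA gene, none was called (beside 0.774% of all genes) and the median log2 difference in 5-FU was -0.02, beside -0.04 for the other 1854.

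**Figure D2:**
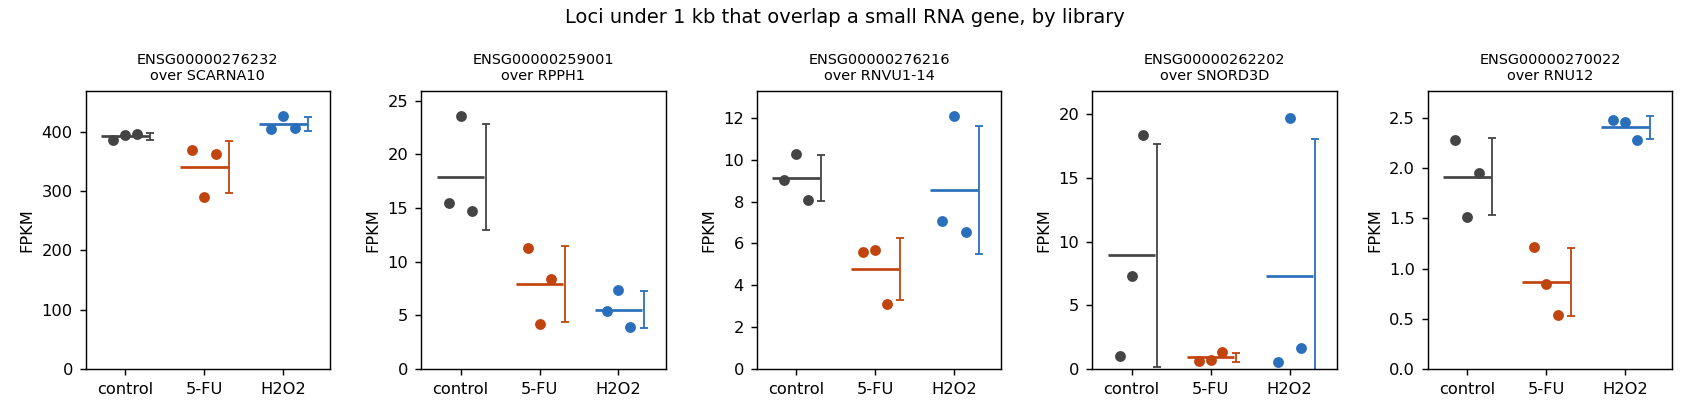
FPKM in each library (points), with the mean (line) and SD (bar, n = 3, drawn from 0 where it would go below), of the 5 loci under 1 kb that overlap a small RNA gene. The locus with RPPH1 is lower in every treated library than in every control library, and the locus with SNORD3D varies most within groups.

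The comparison of 5-FU with control asks how 24 h of the antimetabolite changed these RNAs. With limma on log2(FPKM + 0.5) over all 9947 genes, 12 of the 1973 loci (0.608%) were called at an adjusted p under 0.05, beside 0.774% of all genes tested. Of these, 6 were higher (0.304%, beside 0.523%) and 6 lower (0.304%, beside 0.251%). The loci were therefore called at close to the background rate. At an unadjusted p under 0.05 stood 131 loci as higher (6.64%, beside 9.03%) and 178 as lower (9.02%, beside 6.46%). The median log2 difference was -0.04 for the loci and 0.03 for all genes. The 10 listed epithelial and cell line markers summed to 382 to 462 FPKM in control libraries. The sum was lower with 5-FU, 257 to 328 FPKM, and 354 to 499 FPKM with H2O2. The keratin gene KRT8 makes up most of the lower sum, with a mean of 228 FPKM in control and 103 with 5-FU. Means were also lower with 5-FU for KRT19 (21.7 and 13.8 FPKM), EPCAM (17.6 and 11.4), MUC1, KRT18, CEACAM5 and FGFR2. They were higher for KRT7 (5.38 and 8.28 FPKM), the cadherin gene CDH1 (15.1 and 17.9) and PVT1 (34.6 and 37.0). The part of these markers in the results was not tested.

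Among the 6 that rose, ENSG00000253666 (AP000424.1), an antisense-class locus of 7 transcripts on chromosome 8, 8604 bases from ANKRD46, changed most. It measured 0.391, 0.330 and 0.299 FPKM in control, 1.98, 2.17 and 2.82 in 5-FU and 0.564, 0.981 and 0.558 in H2O2. Low in every control library, it was highest in 5-FU and between in H2O2, with no overlap (log2 1.74 ± 0.207, adjusted p = 0.0192). It passed the expression filter through treated libraries alone, so a higher treated level had a part in its choice. Its 4 most abundant transcripts each had a higher mean in 5-FU than in control, the first from 0.0759 to 0.829 FPKM.

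ENSG00000273448 (AC006480.2) is a single-exon lincRNA at chr7:67333047-67334383, with no protein-coding gene within 10 kb. It measured 0.170, 0.313 and 0.155 FPKM in control, 1.35, 1.12 and 1.31 in 5-FU and 0.665, 0.889 and 1.03 in H2O2. The 3 groups did not overlap, and the 5-FU change passed (log2 1.31 ± 0.192, adjusted p = 0.0224). This locus, too, passed the expression filter through treated libraries alone. In H2O2 the locus had the smallest p of those higher and did not pass (log2 0.93, adjusted p = 0.294).

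ENSG00000276672 (AL161891.1) is a sense-intronic, single-exon locus of 4636 bases at chr13:33846190-33850825, inside RFC3, a subunit of the clamp loader that places PCNA on DNA. It measured 3.21, 2.43 and 2.30 FPKM in control, 6.69, 7.00 and 7.50 in 5-FU and 3.99, 3.58 and 4.54 in H2O2. All 5-FU libraries were above all others (log2 1.27 ± 0.170, adjusted p = 0.0195). None of its bases overlapped an RFC3 exon, and RFC3 itself is not listed in the table.

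ENSG00000276850 (AC245041.2) on chromosome 10 lies opposite to the neuropeptide Y receptor gene NPY4R2. It measured 3.34, 2.73 and 2.21 FPKM in control, 6.56, 6.06 and 5.96 in 5-FU and 3.46, 3.51 and 3.00 in H2O2, with H2O2 overlapping control (5-FU log2 1.051 ± 0.172, adjusted p = 0.0304). Its transcript ENST00000610809 made up 71.5% of the level and averaged 1.66 FPKM ± 0.398 in control against 4.62 ± 1.11 in 5-FU (SD, n = 3 each).

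ENSG00000275185 (AC130324.3), 542 bases at chr17:30899110-30899651, lies wholly opposite to exons of TEFM, the mitochondrial transcription elongation factor, and 3241 bases from ATAD5, which unloads PCNA. It measured 2.07, 2.86 and 2.75 FPKM in control, 4.92, 5.78 and 6.78 in 5-FU and 2.28, 2.91 and 2.39 in H2O2. Control and H2O2 overlapped and 5-FU stood above both (log2 1.048 ± 0.187, adjusted p = 0.0342). The listed transcripts of TEFM averaged 1.91 FPKM in control and 1.07 in 5-FU, which did not pass (adjusted p = 0.269). Without knowing whether strand was used, reads of such opposite pairs cannot be told apart.

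ENSG00000259354 (SLC30A4-AS1) on chromosome 15 overlaps C15orf48 on its own strand and the zinc transporter gene SLC30A4 on the other. It measured 0.138, 0.148 and 0.0825 FPKM in control, 0.621, 0.750 and 0.783 in 5-FU and 0.299, 0.357 and 0.279 in H2O2, in non-overlapping steps. It passed the expression filter through its 5-FU libraries alone, so a higher 5-FU level was built into its choice (log2 0.97, adjusted p = 0.0363).

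Among the 6 that fell, ENSG00000286058 on chromosome 2 had the largest change. Its main transcript, of 12 exons, is listed in V29 under FAR2P1, a pseudogene copy of the fatty acyl-CoA reductase gene FAR2. It measured 12.4, 10.9 and 13.01 FPKM in control, 4.01, 5.13 and 7.05 in 5-FU and 10.2, 11.99 and 9.70 in H2O2. All 5-FU libraries were below all others (log2 -1.12 ± 0.198, adjusted p = 0.0341). Both of its transcripts averaged less in 5-FU. A second locus with a main transcript under FAR2P1, ENSG00000290591, overlaps it on the same strand and measured 2.76, 2.45 and 3.37 FPKM in control, 1.19, 1.30 and 1.53 in 5-FU and 2.82, 2.88 and 3.17 in H2O2 (5-FU log2 -0.86, adjusted p = 0.0570). These values are not independent, since reads can be divided between the overlapping models.

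ENSG00000287527 on chromosome 5, at chr5:141822076-141825488, is absent from V29 and has no V29 protein-coding gene within 10 kb. It measured 3.12, 2.35 and 3.04 FPKM in control, 1.23, 0.992 and 1.39 in 5-FU and 3.53, 3.08 and 4.08 in H2O2. 5-FU libraries lay below both other groups (log2 -0.97 ± 0.186, adjusted p = 0.0484).

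ENSG00000272106 (AL691432.2), the CG-rich locus of 2038 bases, lies opposite to MIB2, a ubiquitin ligase of Notch ligands, and 10.7% of it faces MIB2 exons. It measured 1.1003, 1.09 and 1.44 FPKM in control, 0.378, 0.381 and 0.403 in 5-FU and 0.986, 0.819 and 0.705 in H2O2, each group apart (5-FU log2 -0.94 ± 0.181, adjusted p = 0.0484). No 5-FU library reached the level of the filter, so higher values in the other groups had a part in its choice. The listed MIB2 transcripts averaged 6.65 FPKM in control and 6.07 in 5-FU (adjusted p = 0.819).

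ENSG00000273084 (LINC03073) on chromosome 7 lies 769 bases from the F-box gene FBXL18 and over LINC02983 on the other strand. It measured 2.93, 2.65 and 3.38 FPKM in control, 1.38, 1.14 and 1.43 in 5-FU and 2.15, 2.49 and 2.08 in H2O2, each group apart (5-FU log2 -0.94 ± 0.171, adjusted p = 0.0363). LINC02983 averaged 0.768 FPKM in control and 0.342 in 5-FU, which did not pass (adjusted p = 0.162).

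ENSG00000267317 (AC027307.2) at chr19:1457670-1458580 lies opposite to APC2, a relative of the Wnt pathway tumour suppressor APC, and 42.9% of it faces APC2 exons. It measured 4.86, 5.03 and 5.81 FPKM in control, 2.55, 2.27 and 2.87 in 5-FU and 4.30, 5.23 and 6.02 in H2O2, with H2O2 overlapping control (5-FU log2 -0.90 ± 0.173, adjusted p = 0.0484). APC2 was listed at a mean of 0.247 FPKM in control and was too low to test.

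ENSG00000242861 (AL591895.1) on chromosome 1 overlaps the ion channel gene TMEM63A on its own strand and EPHX1, the microsomal epoxide hydrolase gene, on the other. It measured 9.28, 9.97 and 10.8 FPKM in control, 4.90, 4.84 and 6.12 in 5-FU and 7.96, 8.61 and 7.75 in H2O2, again in non-overlapping steps (5-FU log2 -0.87 ± 0.150, adjusted p = 0.0322). Of its main transcript, 12.4% lies in TMEM63A exons.

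**Figure D3:**
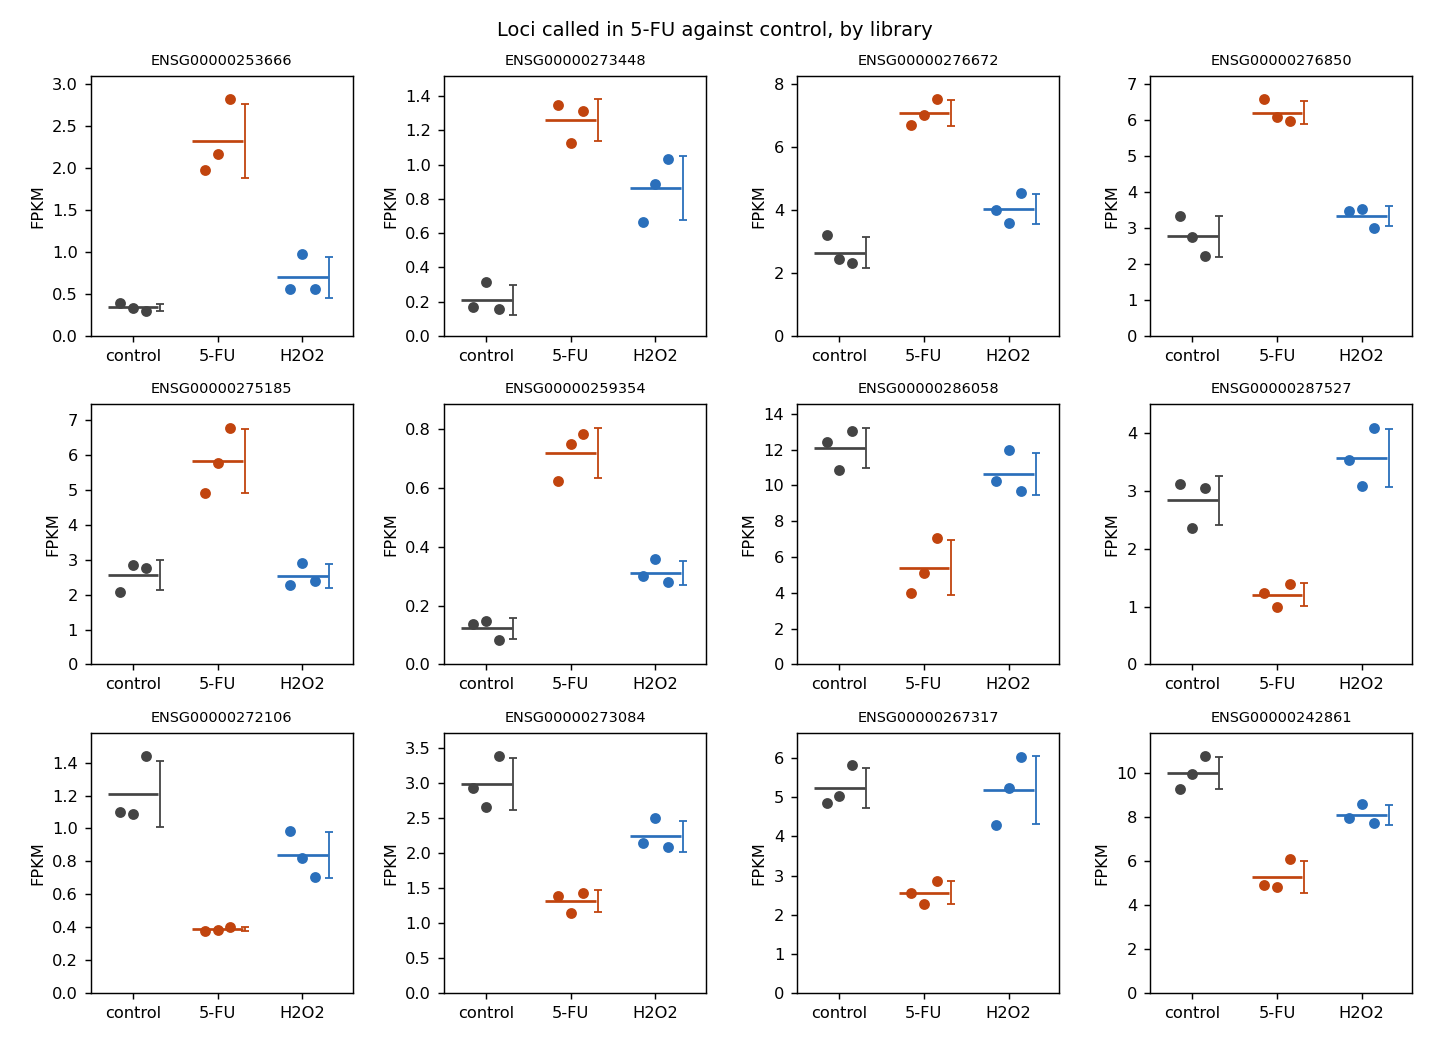
FPKM in each library (points), with the mean (line) and SD (bar, n = 3), of the 12 loci called in 5-FU against control, first the 6 that rose and then the 6 that fell. Control and 5-FU libraries do not overlap in any of the 12.

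The number of calls changed when 1 library was left out. Each such fit also had a smaller group, and the part of group size was not tested. No locus was called when any one control library, or replicate 2 or 3 of 5-FU, was left out. Calls over all 9947 genes were then 1, 1 and 2 without control replicates 1, 2 and 3. They were 0 and 3 without 5-FU replicates 2 and 3. Without replicate 1 of 5-FU 1 locus was called, and without replicates 1, 2 and 3 of H2O2 in turn 3, 8 and 14. Calls over all 9947 genes in those 4 fits were 7, 20, 76 and 88. In such fits the log2 differences ranged, for example, from 1.62 to 1.83 for ENSG00000253666 and from -1.32 to -0.95 for ENSG00000286058. The direction of the 12 could not change in them, since control and 5-FU libraries did not overlap at any of the 12. Groups without overlap were seen at 471 loci (23.9%), beside 22.3% of all genes, with 5-FU higher at 197 (9.98%, beside 12.8%) and lower at 274 (13.9%, beside 9.56%).

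Loci were also grouped by position. Relative to genes listed with a symbol, 376 loci overlapped one on the other strand, 380 on the same strand and 68 on both. A further 140 overlapped one with their strand not known, 30 lay head to head within 1 kb, 357 otherwise within 10 kb and 622 farther away. Loci on the other strand had a median log2 difference of -0.17, with 15 higher (3.99%, beside 9.03% of all genes) and 51 lower (13.6%, beside 6.46%) at an unadjusted p under 0.05. Loci on the same strand had 0.07, with 37 higher (9.74%) and 22 lower (5.79%). With every library left out in turn, the first median stayed between -0.18 and -0.13 and the second between 0.01 and 0.10. Under median-of-ratios scaling they were -0.20 and 0.04. This is a description of groups of loci, and the difference between positions was not tested.

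V29 classes and V29 protein-coding genes, the latter added after seeing the data, gave the same signs. These groupings sort the same loci by related criteria in the same libraries, so like signs are no separate support. Antisense loci had a median of -0.16 with 23 higher (4.54%, beside 9.03% of all genes) and 72 lower (14.2%, beside 6.46%) at the unadjusted level. Sense-intronic loci had 0.08, with 30 higher (8.4%) and 16 lower (4.48%). With every library left out in turn these medians ran from -0.19 to -0.14 and from -0.003 to 0.11. Against all V29 protein-coding genes, 1231 loci overlapped one. The median was -0.18 for the 485 on the other strand and 0.07 for the 471 on the same strand. Of those 471 loci, 81.1% had a main transcript with no base in an exon of the host strand, and of the 485, 25.4% faced no exon. In H2O2 the medians were -0.06 on the other strand and -0.0025 on the same strand.

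**Figure D4:**
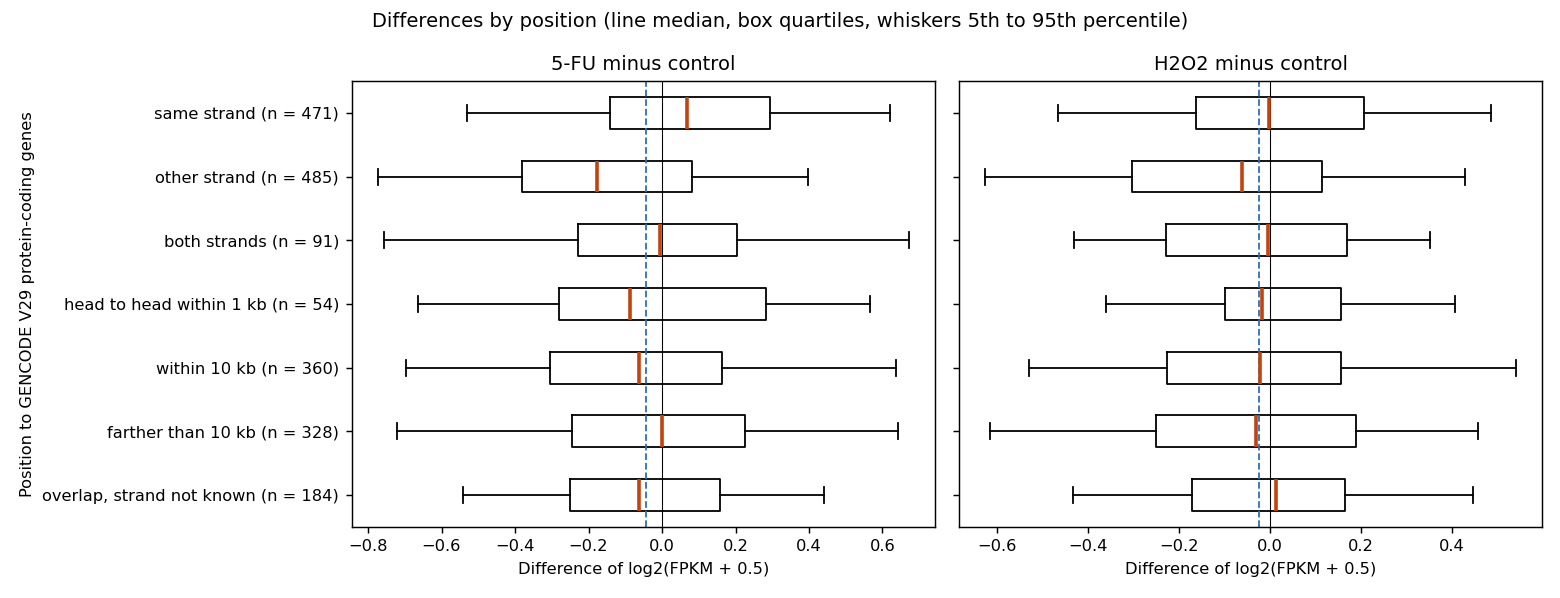
Difference of log2(FPKM + 0.5) from control by position to V29 protein-coding genes, for 5-FU and H2O2 (line, median; box, quartiles; whiskers, 5th to 95th percentile; dashed line, median of all 1973 loci). In 5-FU the 485 loci on the other strand have a median of -0.18 and the 471 on the same strand 0.07.

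A locus and the gene it overlaps moved alike only in part. Across 357 same-strand pairs with a tested neighbour, the 5-FU log2 differences of locus and neighbour had a Pearson r of 0.292, and 61.3% had the same sign. Across 282 opposite-strand pairs r was 0.05, with 49.6% of the same sign. For 366 pairs farther than 10 kb apart r was 0.02, with 53.6% of the same sign. In H2O2, r was 0.185 with 53.2% of the same sign for same-strand pairs. It was -0.05 with 46.8% for opposite-strand pairs. These are descriptions across loci that share libraries, and in same-strand pairs reads can be shared.

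Named lncRNA families gave a scale for these values. In 5-FU, 8 of 247 LINC genes (3.24%), 8 of 436 named antisense genes (1.83%), 2 of 208 divergent genes named DT (0.962%) and 2 of 23 small nucleolar RNA host genes (8.7%) were called, against 0.608% of the loci without a symbol. None of 27 microRNA host genes was called, beside 0.774% of all genes tested. The medians of the log2 difference were -0.08 for LINC, -0.18 for antisense, -0.24 for DT and -0.10 for the host genes, beside -0.04 for the loci. These families were not tested against each other, and the host genes had a median level of 14.7 FPKM against 1.004 for the loci.

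H2O2 against control gave no call among the loci or among all 9947 genes (0.0% called, limma). No alternative fit called one of the loci. At an unadjusted p under 0.05 stood 161 loci (8.16%, beside 9.07% of all genes), 67 higher (3.4%, beside 5.29%) and 94 lower (4.76%, beside 3.78%). Groups did not overlap at 313 loci (15.9%, beside 15.4%), with H2O2 higher at 138 (6.99%, beside 8.86%) and lower at 175 (8.87%, beside 6.51%). The smallest adjusted p among the loci was 0.294.

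Besides ENSG00000273448, the loci with the smallest p on the higher side were ENSG00000276573 and ENSG00000286138. ENSG00000276573, 223 bases in an intron of the small GTPase gene RAP2A, measured 0.198, 0.656 and 0.960 FPKM in control, 2.03, 1.21 and 1.501 in 5-FU and 1.53, 2.28 and 2.11 in H2O2. Both treated groups lay above control (H2O2 log2 1.22, adjusted p = 0.333). ENSG00000286138, 47 bases from the mitochondrial import gene TIMM44, measured 0.167, 0.280 and 0.0965 FPKM in control, 0.345, 0.245 and 0.307 in 5-FU and 0.653, 0.585 and 0.936 in H2O2 (log2 0.84, adjusted p = 0.333). It passed the expression filter through its H2O2 libraries alone, so a higher H2O2 level was built into its choice.

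On the lower side, after the RPPH1 locus, came ENSG00000279623 in an intron of the chaperone gene DNAJC1. It measured 2.08, 1.31 and 1.33 FPKM in control, 0.584, 0.912 and 0.792 in 5-FU and 0.332, 0.682 and 0.0434 in H2O2, below control in every treated library (H2O2 log2 -1.33, adjusted p = 0.294). ENSG00000273059 on chromosome 1 averaged 1.15 FPKM in control, against 0.469 with 5-FU and 0.282 with H2O2 (log2 -1.09, adjusted p = 0.294). All of its control libraries and none of its H2O2 libraries reached 0.5 FPKM, so a higher control level had a part in its choice.

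Between the treatments, 5-FU against H2O2 called none of the loci, beside 7 of all genes (0.0704%, with 0.0302% higher and 0.0402% lower). At an unadjusted p under 0.05 stood 254 loci (12.9%, beside 11.6%), 111 higher (5.63%, beside 6.08%) and 143 lower (7.25%, beside 5.47%). Groups did not overlap at 406 loci (20.6%, beside 17.7%), with 5-FU higher at 186 (9.43%, beside 9.42%) and lower at 220 (11.2%, beside 8.32%). ENSG00000287527, described above, came nearest, with 1.21 FPKM ± 0.202 in 5-FU and 3.56 ± 0.505 in H2O2 (log2 -1.25 ± 0.186, adjusted p = 0.0522). It passed with a pseudocount of 0.1, with a filter at a mean of 1 FPKM and under median-of-ratios scaling. ENSG00000253666 and ENSG00000275185 were next on the higher side (log2 1.24, adjusted p = 0.0815, and 1.06, adjusted p = 0.0847).

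The third on the higher side, ENSG00000280206 (AC026401.3), lies in an intron of NDE1, a centrosome gene, at chr16:15701237-15702118. It measured 22.0, 22.7 and 24.3 FPKM in control, 28.1, 31.2 and 37.2 in 5-FU and 18.8, 18.9 and 18.0 in H2O2. The groups did not overlap, with 5-FU above and H2O2 below control (5-FU against H2O2 log2 0.77 ± 0.140, adjusted p = 0.0987). On the lower side stood ENSG00000290591 and ENSG00000267317, both near control in H2O2 and lower in 5-FU (adjusted p = 0.113 for each). The contrasts with control share the control libraries, and those with H2O2 share its libraries, so they are not independent.

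**Figure D5:**
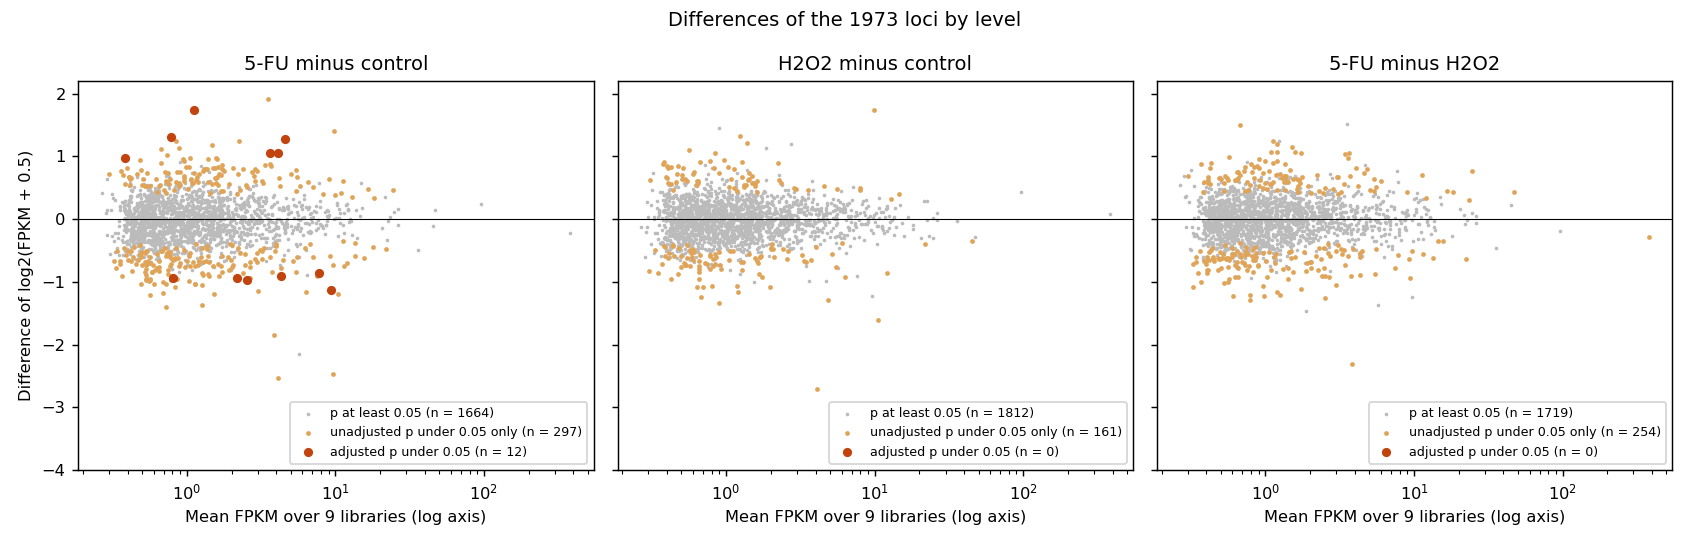
Difference of log2(FPKM + 0.5) against mean FPKM over 9 libraries (log axis) for the 1973 loci in each of the 3 contrasts, with loci at an adjusted p under 0.05 as large points. The 12 called loci lie in the 5-FU panel, with means from 0.384 to 9.38 FPKM, and no locus is called in the other panels.

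Loci near genes of known stress pathways were taken from 6 gene lists. Of S phase and replication genes 23 were tested, and 4 were called higher in 5-FU, beside 0.523% of all genes tested. These were MCM5 and MCM10 of the replicative helicase machinery, CDC45 and ORC6. For example, MCM10 averaged 1.61 FPKM ± 0.0840 in control and 4.57 ± 0.436 in 5-FU (SD, n = 3, adjusted p = 0.0224). Loci lay within 10 kb of 4 list genes, and only the locus in RFC3 was called. ENSG00000276292 near RFC5 measured 0.868, 1.56 and 0.642 FPKM in control and 1.36, 2.27 and 2.29 in 5-FU, overlapping and not passing (adjusted p = 0.318). ENSG00000275393 near GINS2 averaged 0.260 and 0.705 FPKM, and ENSG00000276131 opposite to GINS3 averaged 0.744 and 0.721.

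Of p53-activated genes 14 were tested and 1 was called higher in 5-FU, beside 0.523% of all genes tested. It was RRM2B, which supplies nucleotides for repair (1.15 FPKM ± 0.173 in control, 3.41 ± 0.517 in 5-FU, adjusted p = 0.0452). None of the 4 loci near p53-activated genes was called. ENSG00000256325, 436 bases in an intron of MDM2, the ubiquitin ligase of p53, measured 6.55, 8.01 and 6.95 FPKM in control, 9.21, 11.9 and 13.5 in 5-FU and 6.62, 9.62 and 8.98 in H2O2. Its 5-FU libraries lay above all control libraries (log2 0.64, adjusted p = 0.156). The listed MDM2 transcripts averaged 21.7 and 41.8 FPKM, which did not pass either (adjusted p = 0.0876). ENSG00000253616 (CHILL1), 2198 bases from the death receptor gene TNFRSF10B, averaged 4.74 FPKM ± 1.19 and 6.84 ± 2.58 (adjusted p = 0.426). ENSG00000257181, opposite to MDM2 exons, and ENSG00000290041 near PLK3 averaged under 1 FPKM in every group.

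Of heat shock and endoplasmic reticulum (ER) stress genes 10 were tested and none was called, nor were the 6 loci near them. Beside this, 0.774% of all genes tested were called in 5-FU and 0.0% in H2O2. Both loci in HERPUD1, a gene of ER-associated degradation, were lower in all 5-FU than in all control libraries. ENSG00000261114 measured 11.2, 11.9 and 12.4 FPKM in control, 6.29, 7.25 and 7.22 in 5-FU and 9.76, 12.9 and 8.06 in H2O2 (5-FU log2 -0.74, adjusted p = 0.0968). ENSG00000261270 averaged 3.55 and 2.40 FPKM (adjusted p = 0.196), and these 2 loci overlap each other. The listed HERPUD1 transcripts averaged 72.8 and 61.9 FPKM (adjusted p = 0.449). ENSG00000226471, 86 bases from XBP1 on the other strand, averaged 2.70 and 2.19 FPKM, and ENSG00000284707 in ASNS averaged 0.944 in control and 2.17 in H2O2 (adjusted p = 0.556).

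Of NRF2 targets, the genes of the oxidant response, 11 were tested and none was called, nor were the 4 loci near them. Beside this, 0.774% of all genes tested were called in 5-FU and 0.0% in H2O2. ENSG00000231683 in GCLC, which encodes the catalytic subunit of glutathione synthesis, measured 0.408, 1.002 and 0.682 FPKM in control and 2.22, 0.888 and 2.29 in H2O2, with overlap (adjusted p = 0.498). ENSG00000261602, opposite to exons of the quinone reductase gene NQO1, measured 0.665, 0.801 and 1.42 FPKM in control, 0.337, 0.219 and 0.348 in 5-FU and 0.497, 0.526 and 0.426 in H2O2. Every treated library lay below every control library (5-FU log2 -0.84, adjusted p = 0.121). All of its control libraries and none of its 5-FU libraries reached 0.5 FPKM, so a higher control level had a part in its choice. ENSG00000262967 near ABCC3 averaged 0.829 FPKM in control and 0.232 in 5-FU (adjusted p = 0.205), and ENSG00000284642 near PGD 0.463 and 0.610 (adjusted p = 0.675). None of 18 interferon-stimulated genes or 7 NF-kB feedback genes tested was called, beside the same shares of all genes. The single locus near the former, ENSG00000272512 by ISG15, averaged 0.408 and 0.593 FPKM (adjusted p = 0.506), and none lay near the latter.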

How the data were processed

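The authors deposited FPKM values per transcript, with 1 column for each of 9 libraries and no counts, in a table of 90652 transcripts. Per the submitters' processing notes, HISAT2 2.0.5, StringTie and edgeR 3.22.5 were used with GRCh38, in steps that the notes available do not assign. Neither the annotation release nor the use of strand is stated there.

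FPKM were summed per gene identifier without scaling. Genes with at least 0.5 FPKM in at least 3 libraries (9947) were tested on log2(FPKM + 0.5), a scale that understates changes of low genes, with limma 3.58.1 (lmFit, eBayes with trend) in R 4.3.3. One joint model held the 9 libraries and no term for replicate number. The two-sided p-values were adjusted by Benjamini-Hochberg across every gene tested, at a threshold of 0.05. The procedure was tested on simulated data. Classes, strands, exons and sequences came from GENCODE 29, and strand was found for 1570 loci and not for 403.

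Loci were named by a rule: the 8 most abundant, up to 8 called a direction and contrast (or the 3 with the smallest p), the 4 steadiest, the 4 most variable, the 4 with most transcripts, called loci with their neighbours, loci at the filter's edge and up to 4 near genes of each list. The loci, gene lists and rules were chosen with earlier results of these data known. Others named were chosen after their values were seen. Some items are not reported here.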

Additional observations from a re-analysis of the deposited data

How the results depend on the processing

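In 5-FU against control, 12 loci were called as reported and 77 of all genes. The loci called numbered 6 (48 of all genes) with no filter on low values, 20 (94) under median-of-ratios scaling, 21 (112) with array weights, 2 (21 of all genes) with only the groups compared and 0 (3 of all genes) without both treatment libraries numbered 3. Leaving out 1 library gave 0 to 14 loci and 0 to 88 genes. Under median-of-ratios scaling 7 loci were higher and 13 lower, and with array weights 8 and 13. In H2O2 against control no locus was called under any alternative; all genes gave 0 to 3 calls with 1 library left out, the 3 without H2O2 replicate 3, and 6 without both libraries numbered 3. In 5-FU against H2O2, 1 locus was called with a pseudocount of 0.1, a mean of at least 1 FPKM or median-of-ratios scaling. Calls over all genes there went from 7 to 0 with no filter or only the groups compared, 3 with array weights or no trend, 4 without both libraries numbered 3, and 0 to 4 with 1 library left out. The cause of these shifts was not tested. Adding the replicate number as a block left 0 calls in 5-FU against control and 0 in 5-FU against H2O2; deviations of same-numbered libraries correlated between -0.04 and 0.08, so the numbers are not shown to pair the samples. For the 12 called loci, 102 of 236 fits kept the call, 134 lost it and none changed direction. Nor did the loci of smallest p in the other contrasts (115 and 118 fits). These counts do not cover the other named loci. Where the groups compared do not overlap, leaving out a library cannot reverse a direction, so a kept direction there is no sign of stability. A filter at 0.5 FPKM in all 9 libraries kept 1005 loci, and 1 FPKM in 3 libraries 1158. With a window of 1 kb, 124 loci lay near a listed gene without overlap, against 387 within 10 kb. Depth is unknown, so counting error could not be separated from other spread.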
